A study of Homo sapiens with 13 samples.

Results

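The comparison described here set the bone-metastatic cell line M5 against the bone-metastatic cell line M4. Its members were the 3 arrays titled M5 and the 3 arrays titled M4, chosen by title alone, out of 13 arrays in the series. Every array measured RNA of cells derived from a human non-small cell lung carcinoma. The control cells filled 4 arrays, 2 without and 2 with a luciferase reporter. A further line, M1, filled 3 arrays. According to the labels, the M lines descend from control cells injected into the hearts of mice, recovered from bone and tested by reinjection into groups of 10 animals. The labels do not say whether M4 or M5 is a single clone, nor do they name the parental line or say whether M4 and M5 carry the reporter. For each array, RNA of 3 cell groups was combined, and the arrays are labelled biological replicates. p-values therefore measure the spread between arrays of such pools, which includes any difference between the array groups described below. Precision is limited by how few arrays there are. The labels give M4 and M5 the same description, so the comparison asks how far 2 lines selected in the same way differ from each other.

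Bone metastases of lung carcinoma grow in a niche where tumour cells meet osteoblasts, osteoclasts and marrow stroma. Tumour cells in bone are known to act through proteases, adhesion receptors, cytokines and growth factors of the TGF-beta family, several of which steer the resorption of bone matrix. Lines recovered from separate lesions of the same parental cells need not share their expression state.

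The 6 arrays did not fall into 2 clean groups of 3. Signals of the 62 control probe sets, which measure spike-in RNA and the hybridisation itself, sorted the 13 arrays into 4 array groups by Ward clustering. The labels do not record what these groups are. The first arrays of M4 and M5 shared a group with 3 other arrays, M4 replicates 2 and 3 shared another with 1 M1 array, and M5 replicates 2 and 3 formed a group of their own. Across all genes, M5 replicate 1 differed from M4 replicate 1 by a median of 0.148 log2 units, and from M5 replicates 2 and 3 by 0.320 and 0.271. Pairs among the 6 arrays correlated across genes with r from 0.975 to 0.998. M5 replicates 2 and 3 also had narrower signal ranges, with upper quartiles of 7.86 and 7.95 against 7.99 to 8.12 on the other 11 arrays. For this reason each difference below is given over all arrays and, where it matters, separately for the first arrays and for the mean of replicates 2 and 3, called the later arrays here. The later M4 and later M5 arrays lie in different array groups, so line and array group cannot be told apart among them.

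Of the 12 rises and 12 falls described first below, 18 have a promoter entry in the RefSeq table used here (assembly GRCh38.p14). The 250 bases before the annotated start are shown for FBN2 and BCHE, the largest of these falls, and for SERPIND1 and PPEF1, the largest of these rises with an entry. They were chosen by the size of the difference among genes with an entry, not by sequence, and their base composition differs widely. Each sequence runs 5′ to 3′ along the gene's strand, and capitals mark CpG dinucleotides, the usual targets of DNA methylation.
FBN2, chr5:128538246-128538495, minus strand: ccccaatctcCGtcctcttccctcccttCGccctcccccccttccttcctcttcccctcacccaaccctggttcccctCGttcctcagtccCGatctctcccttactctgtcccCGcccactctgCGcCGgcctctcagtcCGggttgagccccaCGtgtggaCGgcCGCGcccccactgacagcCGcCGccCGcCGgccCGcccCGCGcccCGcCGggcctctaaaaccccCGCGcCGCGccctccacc
BCHE, chr3:165837424-165837673, minus strand: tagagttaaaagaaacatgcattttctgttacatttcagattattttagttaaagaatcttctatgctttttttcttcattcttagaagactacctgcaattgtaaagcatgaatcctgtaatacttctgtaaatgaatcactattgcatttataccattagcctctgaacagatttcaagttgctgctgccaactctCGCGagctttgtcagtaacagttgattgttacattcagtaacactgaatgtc
SERPIND1, chr22:20773863-20774112, plus strand: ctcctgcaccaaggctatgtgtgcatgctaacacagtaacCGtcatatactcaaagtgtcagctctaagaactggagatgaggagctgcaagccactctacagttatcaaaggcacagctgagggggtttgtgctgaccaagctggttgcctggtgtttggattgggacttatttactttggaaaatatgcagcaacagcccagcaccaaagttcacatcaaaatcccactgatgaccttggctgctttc
PPEF1, chrX:18690713-18690962, plus strand: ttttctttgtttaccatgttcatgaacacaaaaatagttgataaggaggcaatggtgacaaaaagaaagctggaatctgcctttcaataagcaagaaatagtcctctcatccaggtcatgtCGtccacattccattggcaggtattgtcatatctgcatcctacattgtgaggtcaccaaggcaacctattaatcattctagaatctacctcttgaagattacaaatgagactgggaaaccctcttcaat
The FBN2 window holds 25 CpG dinucleotides, the BCHE window 2, and the SERPIND1 and PPEF1 windows 1 each. Over 9563 measured genes with an entry, the median is 19 CpG dinucleotides, with quartiles of 9 and 27. The windows of the called lower genes had a median of 20 (191 genes) and those of the called higher genes a median of 16 (38 genes), called meaning past the test given next. The letters TATAAA, searched on both strands, stand in 7.93% of the measured genes' windows, in 8.38% of the called lower genes' and in 18.4% of the called higher genes'. Among the 18 largest rises and falls with an entry, they stand in the windows of BCHE, IGFBP4, FABP6 and IL7R. These are descriptions of letters, and no methylation or binding was measured.

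M5 differed from M4 at 258 of 11963 genes (2.16%; limma over all 13 arrays in 5 groups, Benjamini-Hochberg adjusted p under 0.05). Of these, 213 were lower in M5 (1.78%) and 45 were higher (0.376%). Differences ran from -4.17 to 3.83 on the log2 scale, the smallest called difference was 0.38 in size, and the median over all genes was 0.035. At least a 2-fold difference was reached by 66 called genes, 56 lower and 10 higher. For all 258 called genes the 3 arrays of M5 lay entirely on one side of the 3 of M4, which was true of 7.33% of all genes upward and 8.9% downward. Where groups are said below not to overlap for a called gene, this is therefore no evidence apart from its call. The signs in the first and later arrays were the same for all 258, which the calling itself partly fixes.

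The count depended strongly on which array was present. It was 162 without M4 replicate 1, 69 without M4 replicate 2, 90 without M4 replicate 3, 124 without M5 replicate 2 and 71 without M5 replicate 3. Without M5 replicate 1 it was 2443, when M5 was represented only by its separate array group. With the 4 array groups as a block, the M5 difference rests on its first array. That fit called 120 genes higher (1%) and 101 lower (0.844%). Called the same way in both fits were 80 genes (0.669%), 20 higher and 60 lower, and 0 of the 258 changed sign. The first M5 array is in both fits, and all 258 already had the same sign in the first arrays. The unchanged signs were therefore largely fixed in advance, and the shared calls are not independent. With the replicate number as a block, 174 genes were called, 27 higher (0.226%) and 147 lower (1.23%), of which 165 were among the 258 in the same direction.

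The 12 largest rises and 12 largest falls were taken from called genes whose lines did not overlap and whose higher line mean exceeded 6.20, the median of all genes. That condition on signal left out 4 called genes with differences as large, CHRNA9, FHOD3 (1.22) and IL18R1 (1.00) upward and CRIP1 (-1.64) downward.

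IL13RA2, a cell-surface receptor that binds interleukin 13 with high affinity, showed the largest rise. Its log2 signals were 4.43, 6.26 and 5.84 on the M4 arrays and 9.42, 9.34 and 9.27 on the M5 arrays. The M5 arrays were close to each other, and all lay far above M4, whose first array was the lowest. The difference was 3.83 ± 0.40 (SE), or 14.3-fold (limma adjusted p = 0.000437). It was 4.99 in the first arrays and 3.25 in the later ones. The controls without luciferase read 6.73 and 8.11 and those with it 9.43 and 9.45, a mean of 8.43 ± 1.30 (SD, n = 4), so M5 was near the luciferase controls and above the others. M1 had a mean of 9.85 ± 0.09 (SD, n = 3). M4 was lower than the mean of the controls by a called difference (-2.92, limma adjusted p = 0.0187), whereas M5 was at 0.91 against that mean (adjusted p = 0.226).

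SERPIND1 encodes heparin cofactor II, a plasma inhibitor of thrombin. The M4 arrays read 4.21, 5.36 and 5.41, and the M5 arrays 7.24, 7.69 and 7.92. The groups did not overlap, and the first M4 array lay below its lower quartile of signal. M5 was higher by 2.62 ± 0.46 (SE; 6.15-fold, limma adjusted p = 0.0122), with 3.03 in the first and 2.42 in the later arrays. Without M5 replicate 3 the difference was 2.47 and no longer called (adjusted p = 0.0715). PPEF1, a serine/threonine phosphatase with calcium-binding EF hands, read 4.33, 4.49 and 4.52 in M4 and 6.80, 5.92 and 5.89 in M5. All M4 signals were below the lower quartile of their arrays, so the fold of 3.38 is not exact (difference 1.76 ± 0.22, SE; limma adjusted p = 0.00161). The first M5 array was the highest. Control cells were at 4.17 for SERPIND1 and 4.06 for PPEF1, and M5 was called higher than control for both (3.45, adjusted p = 0.00244, and 2.14, adjusted p = 0.0004).

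RAB31, a small GTPase of vesicle traffic between the Golgi and endosomes, read 6.92, 6.66 and 6.61 in M4 and 8.10, 8.56 and 8.18 in M5. The spread within either line was small beside the gap between them. M5 was higher by 1.55 ± 0.20 (SE; 2.92-fold, limma adjusted p = 0.00244), and the other 2 probe sets of the gene gave 1.26 and 1.48. With the first of these, the probe set of largest interquartile range, the call was lost (adjusted p = 0.0594). As for IL13RA2, M4 was called lower than control (-1.17, adjusted p = 0.0448) and M5 was not called (0.38, adjusted p = 0.321). FABP6, an intracellular bile acid carrier of the fatty acid-binding family, had signals of 5.82, 5.78 and 5.72 in M4 and 6.80, 7.47 and 7.65 in M5. The M4 arrays were near the control mean of 5.63, and every M5 array was above them. The difference was 1.53 ± 0.21 (SE; limma adjusted p = 0.00305), and M5 was also called higher than control (1.68, adjusted p = 0.00176).

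IL7R, the alpha chain of the interleukin 7 receptor, read 6.30, 7.66 and 7.38 in M4 and 8.65, 8.92 and 8.93 in M5. The first M4 array was the lowest, and the groups did not overlap. The difference was 1.72 ± 0.37 (SE; limma adjusted p = 0.0318), but the call was lost without M4 replicate 1 (1.31, adjusted p = 0.0931), M4 replicate 3 (1.85, 0.0776), M5 replicate 2 (1.68, 0.102) or M5 replicate 3 (1.67, 0.135). It was also lost with the replicate block (adjusted p = 0.0518), while the array group block gave 2.20 (adjusted p = 0.000785). SORL1, a sorting receptor of the LDL receptor family, showed a smaller difference with little spread. It read 6.36, 6.31 and 6.31 in M4 and 7.26, 7.17 and 7.09 in M5. The difference of 0.84 ± 0.10 (SE; limma adjusted p = 0.00122) was nearly the same in the first arrays (0.90) and the later ones (0.82).

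The other 5 of the 12 largest rises were smaller. NIBAN1, a stress-induced cytoplasmic protein, was at 1.21 (limma adjusted p = 0.0456), and IGFBP7, a secreted protein related to the insulin-like growth factor binding proteins, at 1.01 (0.0181). PRRX2, a homeobox factor of mesenchymal tissue, was at 0.95 (limma adjusted p = 0.0154). AP1M2, the clathrin adaptor subunit of epithelial basolateral sorting, was at 0.85 (0.0116), with another probe set also at 0.85, and NRIP3 was at 0.81 (0.0204). The other probe sets of IGFBP7, both dim, gave 0.59 and 0.13, and the mean of its probe sets gave 0.57 (adjusted p = 0.0263). NIBAN1 had another probe set at 0.92 and was not called by the mean of its probe sets (1.06, adjusted p = 0.072), nor in the fit that took probe sets of largest interquartile range (0.0576). Without M5 replicate 3 all 5 lost the call, at adjusted p-values of 0.113 for NIBAN1, 0.0743 for IGFBP7 and PRRX2, 0.0669 for AP1M2 and 0.0645 for NRIP3. Without M4 replicate 2 they were at 0.141, 0.0848, 0.0791, 0.065 and 0.0848 in the same order. Without M4 replicate 1, NIBAN1 (0.107), IGFBP7 (0.0686), PRRX2 (0.0555) and NRIP3 (0.0783) were lost as well. Without M4 replicate 3, NIBAN1 (0.183), IGFBP7 (0.0571), AP1M2 (0.0571) and NRIP3 (0.0628) were lost, and without M5 replicate 2, NIBAN1 (0.171), IGFBP7 (0.0657) and PRRX2 (0.063). The array group block lost IGFBP7 (adjusted p = 0.209), PRRX2 (0.0523) and AP1M2 (0.0553), and the replicate block lost NIBAN1 (0.0653). Of the 12 largest rises, 5 were called in all 6 fits that each left out 1 array, namely IL13RA2, PPEF1, RAB31, FABP6 and SORL1.

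**Figure D1:**
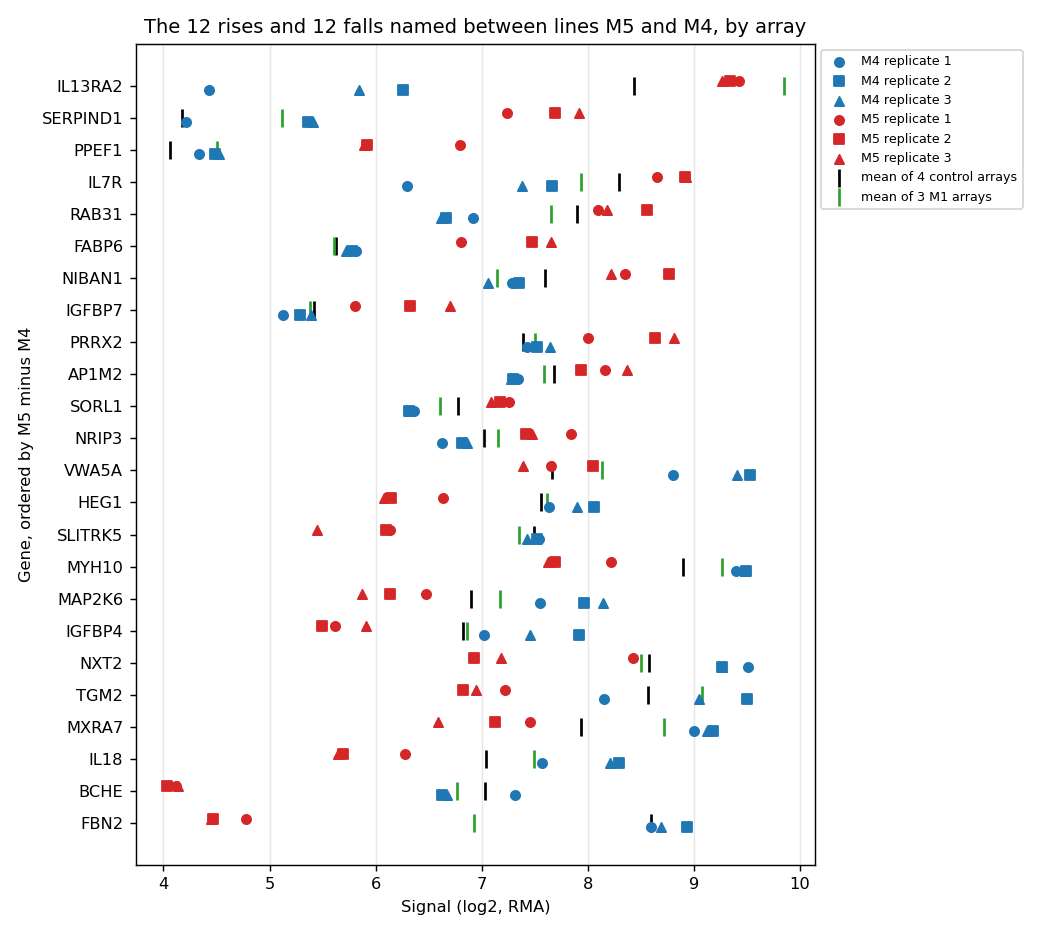
Log2 RMA signal (horizontal axis) of the 12 largest called rises and 12 largest called falls between M5 and M4 among genes whose lines did not overlap and whose higher line mean exceeded 6.20, with 1 point per array and bars for the means of 4 control and 3 M1 arrays. Non-overlap of the lines was a condition for inclusion. For IL13RA2 the 3 M5 arrays sit between 9.27 and 9.42 while M4 runs from 4.43 to 6.26.

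FBN2, which encodes fibrillin-2, a structural protein of extracellular microfibrils, showed the largest fall. It read 8.60, 8.93 and 8.69 on the M4 arrays and 4.78, 4.46 and 4.45 on the M5 arrays. The M4 arrays were near the control mean of 8.60 ± 0.76 (SD, n = 4), and 2 of the 3 M5 arrays were below their lower quartile of signal. The difference was -4.17 ± 0.43 (SE; limma adjusted p = 0.000437), and the corresponding fold of 18.1 is not exact because M5 lies near the bottom of the signal range, with -3.82 in the first and -4.35 in the later arrays. M1 lay between them at 6.93 ± 1.11 (SD, n = 3). Another FBN2 probe set had a mean signal of only 3.64 and a difference of -0.17, so the fall rests on 1 probe set, and the mean of both gave -2.17 (adjusted p = 0.00126).

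BCHE encodes butyrylcholinesterase, an enzyme that hydrolyses choline esters, and lies on chromosome 3. Its signals were 7.32, 6.62 and 6.68 in M4 and 4.12, 4.03 and 4.14 in M5. All M5 arrays were below their lower quartile, so the fold of 6.86 is not exact (difference -2.78 ± 0.29, SE; limma adjusted p = 0.000437). IL18, a pro-inflammatory cytokine, read 7.57, 8.30 and 8.21 in M4 and 6.28, 5.70 and 5.64 in M5. The gap was smaller in the first arrays (-1.29) than in the later ones (-2.58), and the groups did not overlap. The difference was -2.15 ± 0.24 (SE; limma adjusted p = 0.000797).

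MXRA7, a transmembrane protein named for its link to matrix remodelling, read 9.00, 9.18 and 9.12 in M4 and 7.45, 7.13 and 6.59 in M5. The M4 arrays were above and the M5 arrays below the control mean of 7.94. M5 minus M4 was -2.04 ± 0.18 (SE; limma adjusted p = 0.000437), M4 was called higher than control (1.16, adjusted p = 0.0313) and M5 lower (-0.88, adjusted p = 0.0177). MYH10, the heavy chain of non-muscle myosin IIB, read 9.39, 9.49 and 9.48 in M4 and 8.22, 7.69 and 7.63 in M5. M4 hardly varied, and the first M5 array was the nearest to it. The difference was -1.61 ± 0.16 (SE; limma adjusted p = 0.000437). A dimmer probe set of MYH10 was at -0.58, and the mean of both was not called (-1.09, adjusted p = 0.0788).

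Further large falls included enzymes, signalling proteins and a growth factor binding protein. TGM2, the tissue transglutaminase that crosslinks proteins, was at -1.90 (limma adjusted p = 0.00634) and was not called with the array group block (adjusted p = 0.105). Its other probe sets were at -0.91, -0.80 and 0.31, and the mean of its probe sets was not called (-0.82, adjusted p = 0.0727). MAP2K6, a kinase that activates p38, was at -1.72 (limma adjusted p = 0.00045), with a dim probe set at -0.0067 and a mean of both of -0.86 (adjusted p = 0.00595). IGFBP4, a secreted carrier of insulin-like growth factors, was at -1.79 (0.00122). SLITRK5, a transmembrane protein known from neurons, was at -1.60 (limma adjusted p = 0.000437), or -0.91 as the mean with a dim probe set (adjusted p = 0.00222), and NXT2, a factor of nuclear RNA export, at -1.83 (0.00673). NXT2 lost the call without M5 replicate 3 (-1.67, adjusted p = 0.051), and its other probe set was at -1.53. HEG1, a transmembrane protein of the CCM complex on chromosome 3, was at -1.58 (limma adjusted p = 0.00305) and just missed the threshold with the array group block (adjusted p = 0.0541). Another HEG1 probe set was at -0.64, and the mean of both was called (-1.11, adjusted p = 0.0074). VWA5A was at -1.55 (limma adjusted p = 0.0207) and lost the call without M4 replicate 2 (-1.41, 0.122), M4 replicate 3 (-1.47, 0.0955) or M5 replicate 3 (-1.39, 0.114), and as the mean with its other probe set (-1.25, 0.0686). The 12 largest falls other than NXT2 and VWA5A were called in all 6 fits that each left out 1 array. All 12 were called with the replicate block and 10 with the array group block.

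Values of each line against control cells follow for these 24 genes. These comparisons share the control arrays and the lines' own arrays, so only their values are given. The 24 genes were also picked by M5 minus M4 on the same arrays. Shares of calls above those of all genes are therefore partly built in for both lines. M5 was called different from control at 6 of the 12 rises and 10 of the 12 falls, where M5 was called at 284 of 11963 genes in all (2.37%). M4 was called different from control at 2 of the 12 rises, IL13RA2 and RAB31, and 1 of the 12 falls, MXRA7, where M4 was called at 11 genes in all (0.092%). Against M1, M5 was called at 147 genes (1.23%) and M4 at 3 (0.0251%).

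**Figure D2:**
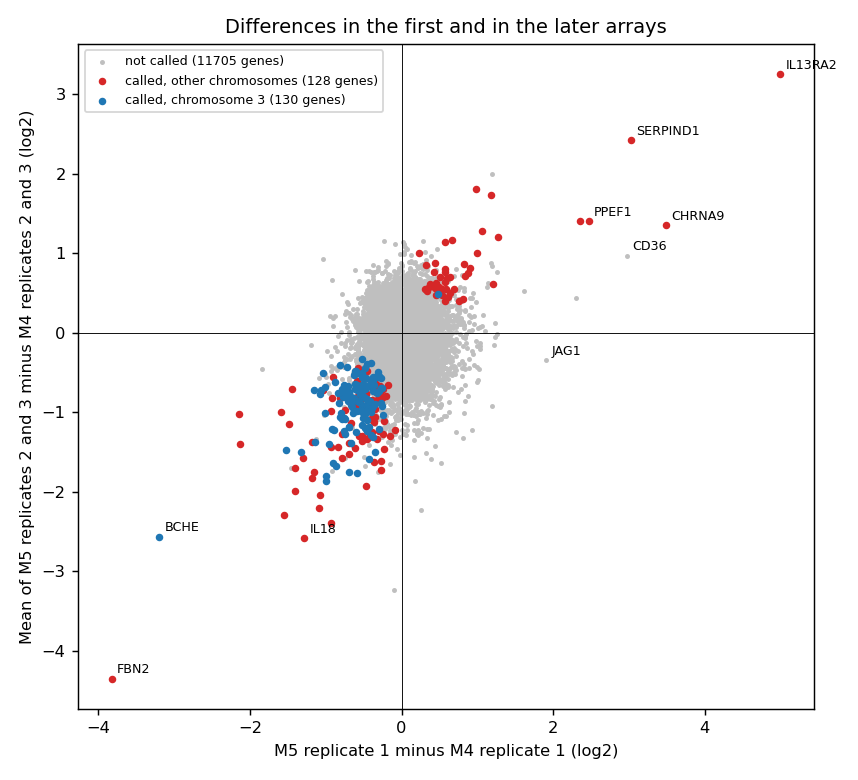
Each point is a gene, with the difference between the first arrays of M5 and M4 on the horizontal axis and that between the means of the later arrays on the vertical axis, both in log2 units. Called genes lie in the lower left and upper right, from FBN2 at -3.82 and -4.35 to IL13RA2 at 4.99 and 3.25, and JAG1 lies to the right with opposite signs.

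Over all genes the first and later differences went together only loosely (Pearson r = 0.22 across 11963 genes, a description in which genes are not independent and no array is shared between the axes). The share of genes with the same sign was 52.37%. On chromosome 3 r was 0.59 over 655 genes and the same-sign share 77.86%.

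Genes on chromosome 3 were lower in M5 along the whole chromosome. Of 655 measured genes there, 129 were called lower (19.7%) and 1 higher, STXBP5L, a syntaxin-binding protein (0.48, limma adjusted p = 0.0311). Chromosome 3 thus held 50.4% of the called genes and 5.48% of the measured ones. The median difference was -0.32 over all 655 genes and -0.55 over the 335 with a mean signal over the all-gene median. For those 335 genes it was -0.41 in the first arrays and -0.65 in the later ones, and 97% were below 0. With the array group block the median of the 655 genes was -0.22.

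The lower signal on chromosome 3 was present on each M5 array. Over the 335 genes, the median differences from the control mean were 0.067, 0.00074 and -0.017 on the M4 arrays and -0.36, -0.68 and -0.58 on the M5 arrays. The M4 arrays stayed near 0, and all 3 M5 arrays lay below, the first one least. When the 335 genes were divided along the chromosome into 10 consecutive stretches, every stretch had a negative median, from -0.37 to -0.84. The lowest was the ninth, from SIAH2 to MCCC1, with 17 of 33 genes called lower. It contains BCHE and the cell division regulator ECT2. Named after their values were seen, other genes with large falls on this chromosome were FNDC3B (-1.53, limma adjusted p = 0.00305), MECOM, a zinc finger transcription factor (-1.40, 0.00122), and FXR1, an RNA-binding protein (-1.25, 0.000437). Falls on chromosome 3 were moderate, with a median of -0.76 over the called lower genes there, against -0.91 over those elsewhere.

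Genes on chromosome 5 lay the other way by a smaller amount. Of 507 measured genes, 13 were called higher (2.56%) and 2 lower, FBN2 and the collagen receptor subunit ITGA2. This chromosome held 28.9% of the called higher genes and 4.24% of the measured ones. The 13 genes were FABP6, IL7R, CLTB, HARS1, RNF130, NDUFS4, PLPP1, THG1L, MYO10, MRPL22, ETF1, TCOF1 and REEP5. Apart from FABP6 and IL7R their differences ran from 0.46 for REEP5 to 0.67 for CLTB, a clathrin light chain. The median over 270 genes above the median signal was 0.195, with 0.314 in the first and 0.120 in the later arrays. Against the control mean, those medians were -0.19, -0.15 and -0.21 on the M4 arrays and 0.13, -0.10 and -0.044 on the M5 arrays. M4 as a whole was at -0.17 and M5 at -0.0026 against control. Against M1, M4 was at -0.034 and M5 at 0.17, so M4 lay near M1, with M5 near control. The M5 and M4 arrays did not overlap on this measure.

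On the other 21 chromosomes measured, 1, 2, 4, 6 to 22 and X, medians of genes above the median signal ran from -0.15 on chromosome 4 to 0.079. On none of them were more than 1.99% of genes called lower or 1.15% higher. Outside chromosome 3, 84 genes were lower (0.743% of 11308) and 44 higher (0.389%), 128 together (1.13%). With the genes of chromosome 3 left out before adjustment, 68 genes were called, 46 lower and 22 higher. DNA copy number was not measured.

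**Figure D3:**
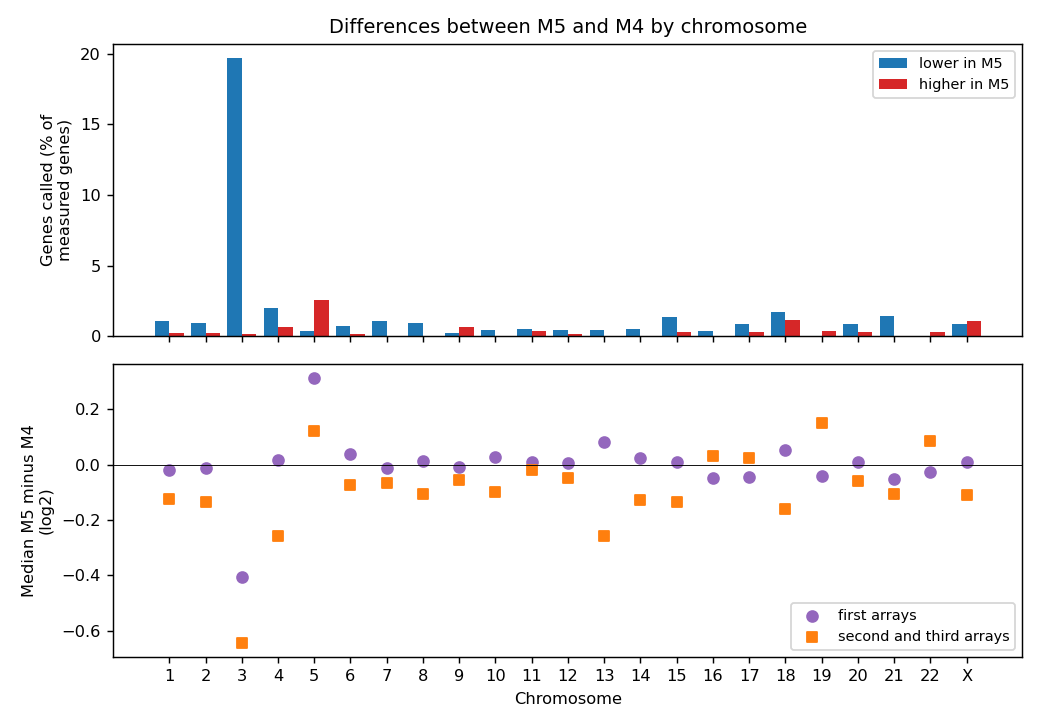
The upper panel gives the percent of measured genes called lower or higher in M5 on each chromosome, and the lower panel the median difference in log2 units for genes above the median signal, in the first and in the later arrays. Chromosome 3 reaches 19.7% lower and chromosome 5 reaches 2.56% higher.

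**Figure D4:**
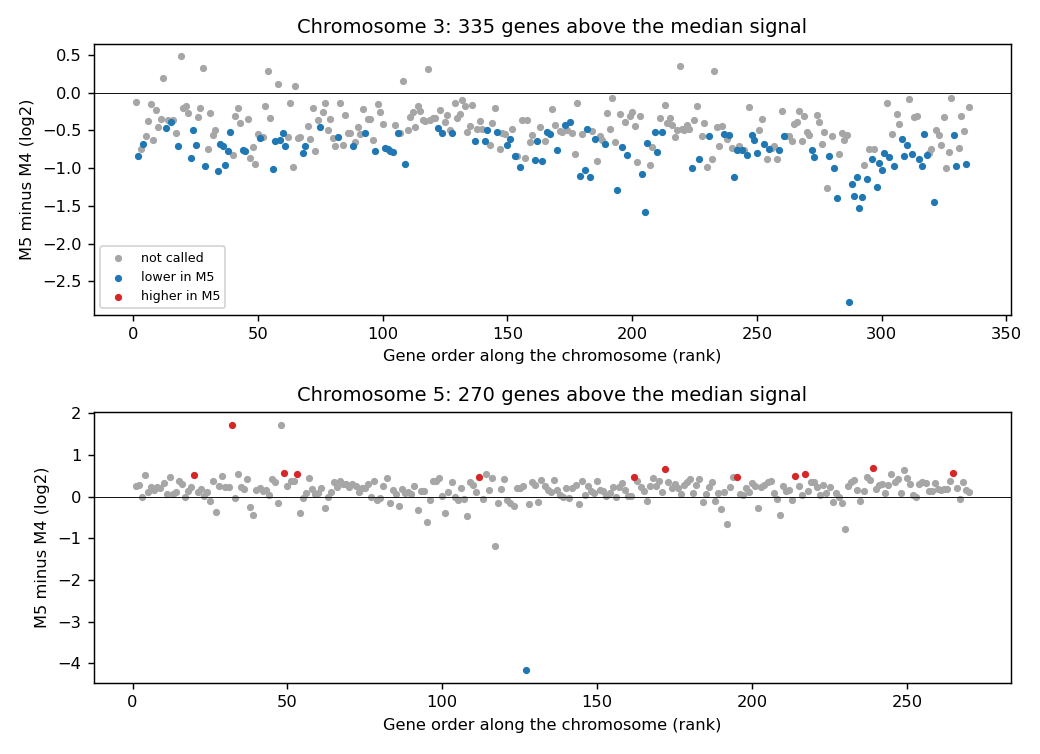
Log2 differences between M5 and M4 of 335 genes on chromosome 3 and 270 on chromosome 5, all above the median signal, in their order along the chromosome. On chromosome 3, 97% of the points lie below 0, and on chromosome 5, 19.6% do.

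Gene lists for pathways of metastasis and bone were then counted. Over 37 lists, 1160 different genes were measured and 43 were called (3.71%, against 2.16% of all genes), 11 higher and 32 lower. Of the 32, 15 lie on chromosome 3. The lists were written with earlier results of these data known, so the higher share among their members can be partly built in. At least 1 member was called in 23 lists and 0 in 14. List medians lay between -0.11 and 0.17, close to the median of all genes.

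Among ligands and cytokines that act in bone, the list of osteolysis and bone metastasis factors had 3 of 32 measured members lower and 0 higher (median -0.022). They were TGFB2, a TGF-beta ligand (-1.04, limma adjusted p = 0.0236), TNFRSF11B, the decoy receptor osteoprotegerin that restrains osteoclast formation (-0.98, 0.032), and CXCL8, the neutrophil chemokine interleukin 8 (-0.67, 0.0228). TNFRSF11B read 5.45, 6.27 and 5.99 in M4 and 4.78, 4.93 and 5.06 in M5. Those signals were low, and the groups did not overlap. Each of the 3 calls was lost without M4 replicate 2, M4 replicate 3 or M5 replicate 3, at adjusted p-values of 0.122, 0.113 and 0.116 for TGFB2, 0.161, 0.129 and 0.0868 for TNFRSF11B, and 0.122, 0.106 and 0.116 for CXCL8. Without M5 replicate 2, TGFB2 (0.0967) and TNFRSF11B (0.0954) were lost as well. None of the 3 was called with the array group block (adjusted p = 0.411, 0.123 and 0.279). CXCL8 also lost the call with the replicate block (adjusted p = 0.0519). TGFB2 was likewise the 1 called member of 45 in the TGF-beta and BMP pathway (median 0.010), with the receptor TGFBR2 at -0.20 (adjusted p = 0.667). The list of NF-kappaB targets and cytokines had IL13RA2 higher and IL18 and CXCL8 lower of 39 (median -0.083).

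Called members of the adhesion and matrix lists went in both directions. Of 37 integrins and adhesion molecules, 3 were lower and 1 higher (median 0.070). ALCAM, an immunoglobulin-family adhesion molecule, was at -1.10 (limma adjusted p = 0.00132). ITGB5, the integrin beta 5 subunit of a vitronectin receptor, was at -1.08 (0.00434). Both lie on chromosome 3, and both held their call in all 6 fits leaving out 1 array and with either block. The other probe sets of ITGB5 were at -1.41, -0.34 and -0.21, and the mean of its probe sets was called (-0.76, adjusted p = 0.03955). ITGA2 was at -0.59 (limma adjusted p = 0.0258) and ITGA3, a laminin receptor subunit, at 0.54 (0.0433), and each was called only without M5 replicate 1 among those 6 fits. In the other 5 the adjusted p ran from 0.0686 to 0.141 for ITGA2 and from 0.111 to 0.148 for ITGA3. ITGA2 was not called with the array group block (adjusted p = 0.195), nor ITGA3 with the replicate block (0.0508). Among basement membrane and matrix proteins, FBN2 and LAMC1, the laminin gamma 1 chain (-0.90, limma adjusted p = 0.0181), were lower of 48 (median 0.016). LAMC1 was not called without M4 replicate 2 (adjusted p = 0.115), M4 replicate 3 (0.0825) or M5 replicate 3 (0.0743). The epithelial identity and junction list had CLDN1, a tight junction protein, lower of 29 (median 0.055). CLDN1 read 8.20, 8.99 and 8.64 in M4 and 6.87, 7.54 and 7.09 in M5. Its groups did not overlap, and the difference was -1.44 ± 0.23 (SE; limma adjusted p = 0.00634), on chromosome 3. In the mesenchymal and EMT list, PRRX2 was the 1 member called of 33, higher (median 0.080). Extracellular proteases and inhibitors had PLAU, the urokinase plasminogen activator, lower of 41 (-1.06, limma adjusted p = 0.032; list median 0.10). PLAU lost its call with the replicate block (adjusted p = 0.066), with the array group block (0.152) and without M4 replicate 2 (-0.82, 0.148), M4 replicate 3 (-1.04, 0.121), M5 replicate 2 (-1.12, 0.0723) or M5 replicate 3 (0.147). Its other probe set was at -1.41, and the mean of both was called (-1.23, adjusted p = 0.0074).

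Lists of receptors and growth factor signals were thinly called. In the growth factor list of 54 genes IGFBP4 was lower and IGFBP7 higher (median 0.013). The Wnt pathway had the receptor FZD6 lower of 39 (-1.04, limma adjusted p = 0.0102; median 0.084), a call lost without M4 replicate 2 (0.0642) or M5 replicate 3 (-0.93, 0.0624) and with the array group block (0.0817). Axon guidance had the Slit receptor ROBO1 (-1.49, limma adjusted p = 0.00163) and the semaphorin co-receptor PLXNA1 (-0.79, 0.00634) lower of 47 (median -0.047), both on chromosome 3. Immediate early and MAPK feedback genes had ETV5, an ETS-family transcription factor on chromosome 3, lower of 39 (-0.87, limma adjusted p = 0.0121; median -0.065). ETV5 lost its call without M4 replicate 2 (0.065), M4 replicate 3 (0.0536) or M5 replicate 3 (0.0697). The Notch pathway had 0 of 21 called (median 0.076). Its ligand JAG1, which is known to signal to bone cells, was at 0.41 (limma adjusted p = 0.643).

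In the list of neuronal receptors, channels and cholinesterases, BCHE and the potassium channel KCNK1 were lower and CHRNA9, an acetylcholine receptor subunit, higher of 40 (median 0.098). CHRNA9 read 4.07, 3.96 and 4.21 in M4 and 7.56, 5.40 and 5.49 in M5. Every M4 signal lay below its lower quartile, and the first M5 array stood far above the other two. The difference was 2.06 ± 0.44 (SE; limma adjusted p = 0.032), and its fold is not exact. Its call was lost without M4 replicate 1 (2.06, 0.09), M4 replicate 2 (2.00, 0.141), M4 replicate 3 (2.13, 0.103) or M5 replicate 3 (2.40, 0.051), and without M5 replicate 1 the difference was 1.36. KCNK1 was at -1.45 (limma adjusted p = 0.0129), with -0.47 in the first and -1.93 in the later arrays. It lost its call with the array group block (adjusted p = 0.0977) and without M4 replicate 2 (0.0775), M4 replicate 3 (0.0602), M5 replicate 2 (0.0511) or M5 replicate 3 (0.0743). The coagulation and complement list had SERPIND1 higher and PLAU lower of 40 (median 0.029).

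Lists of lipid and xenobiotic handling had members called in both directions. Of 35 genes of lipid uptake and carriers, FABP6 and CPT1A, the liver carnitine palmitoyltransferase of fatty acid oxidation (0.75, limma adjusted p = 0.00911), were higher. PLIN2, a lipid droplet coat protein (-0.96, limma adjusted p = 0.00434), and SCARB2, a lysosomal membrane protein (-0.75, 0.0226), were lower, at a list median of 0.10. CPT1A lost its call without M4 replicate 2 (adjusted p = 0.0597) or M5 replicate 3 (0.0519). SCARB2 lost it in 5 of the 6 fits leaving out 1 array (all but that without M5 replicate 1), at adjusted p-values of 0.0586 to 0.122, and with the replicate block (adjusted p = 0.0521) and array group block (0.326). CD36, a fatty acid receptor, read 4.38, 4.37 and 4.33 in M4 and 7.35, 5.40 and 5.24 in M5. The first M5 array again stood apart. Its difference was 1.64 ± 0.40 (SE), which was not called (limma adjusted p = 0.0614), and the M4 signals were below the lower quartile of their arrays. With the array group block it was 3.12 (adjusted p = 5.19e-06) and without M5 replicate 1 it was 0.96 (adjusted p = 0.00133). NRF2 targets and xenobiotic metabolism had GSTA4, a glutathione transferase, higher of 50 (0.79, limma adjusted p = 0.0178; median -0.033), a call lost without M4 replicate 2 (0.102), M4 replicate 3 (0.0774) or M5 replicate 3 (0.051). Cholesterol and fatty acid synthesis (31 measured, median -0.11) and drug efflux transporters (16, median -0.053) had 0 called.

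Membrane traffic held the most called members of any list by count, 5 of 53 (9.43%, against 2.16% of all genes, median -0.0050). By share it came after lipid uptake and carriers (11.4%) and integrins and adhesion molecules (10.8%). Because the lists were written with earlier results of these data known, this order can be partly built in. RAB31 and TSPAN5, a tetraspanin, were higher, and VAMP8, a vesicle SNARE (-1.48, limma adjusted p = 0.00305), TSPAN13 (-1.25, 0.00305) and RAB5A, the early endosome GTPase on chromosome 3 (-1.03, 0.00305), were lower. TSPAN5 (0.75, limma adjusted p = 0.0429) was named after its value was seen, and was not called with the array group block (adjusted p = 0.395). VAMP8, TSPAN13 and RAB5A held their calls in all 6 fits leaving out 1 array. With the array group block TSPAN13 narrowly missed the threshold (adjusted p = 0.0508).

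Proliferation and stress lists were called at few members, all lower, as were 213 of the 258 called genes. In the lists of this paragraph 2.44% to 5.26% of members were called, against 2.16% of all genes. The G1/S list had RFC4, a clamp loader subunit (-0.97, limma adjusted p = 0.00217), and the replicative helicase subunit MCM2 (-0.52, 0.0289) of 56 (median -0.078), both on chromosome 3. The G2/M list had ECT2 (-1.39, limma adjusted p = 0.0236) and the kinetochore protein CENPI (-1.02, 0.0373) of 53 (median -0.098). The p53 and apoptosis list had TP53I3, an oxidoreductase (-0.85, limma adjusted p = 0.0347), and XPC, a DNA damage recognition factor on chromosome 3 (-0.70, 0.00634), of 38 (median -0.074). The unfolded protein and stress list had EDEM1, of glycoprotein degradation (-0.68, limma adjusted p = 0.0143), of 39 (median -0.064). Interferon-stimulated genes had the scramblase PLSCR1 (-0.76, limma adjusted p = 0.0307) of 41 (median -0.019), and antigen presentation had the signal CD47 (-0.48, 0.0433) of 34 (median 0.089). EDEM1, PLSCR1 and CD47 also lie on chromosome 3. RFC4 and XPC held their calls in all 6 fits leaving out 1 array. MCM2, ECT2, CENPI, PLSCR1 and CD47 held it only in the fit without M5 replicate 1, and TP53I3 was also called without M4 replicate 1. In the fits that lost the call the adjusted p ran from 0.0628 to 0.115 for MCM2, 0.0695 to 0.116 for ECT2 and 0.0983 to 0.154 for CENPI. It ran from 0.0825 to 0.15 for PLSCR1, 0.0899 to 0.193 for CD47 and 0.127 to 0.176 for TP53I3. EDEM1 was lost without M4 replicate 2 (adjusted p = 0.091), M4 replicate 3 (0.0629) or M5 replicate 3 (0.0794). The replicate block lost MCM2 (0.0627), CENPI (0.0641), TP53I3 (0.0705) and CD47 (0.0768). The array group block lost ECT2 (0.0523), CENPI (0.634), TP53I3 (0.623), XPC (0.0898), EDEM1 (0.0952), PLSCR1 (0.134) and CD47 (0.33).

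Several of these list members rest on 1 probe set among several. PLXNA1 had another, similarly bright probe set at 0.076, and the mean of both was not called (-0.35, adjusted p = 0.132). CENPI had another, equally bright one at -0.24 (mean of both -0.63, adjusted p = 0.0648). Not called as the mean of their probe sets were also TGFB2 (-0.60, adjusted p = 0.0732), SCARB2 (-0.39, 0.135), CPT1A (0.29, 0.116), CD47 (-0.25, 0.211) and PLSCR1 (-0.77, 0.0592). Called as a mean but moved by over 1.5 times were PLIN2 (-0.50, adjusted p = 0.0275) and ETV5 (-0.55, 0.0166). With the probe sets of largest interquartile range, KCNK1 (-0.67, adjusted p = 0.0631), ETV5 (-0.56, 0.106), TGFB2 (-0.81, 0.182), PLSCR1 (-0.78, 0.138), ITGA3 (0.54, 0.0586) and CD47 were not called. Quantile normalization lost PLAU (adjusted p = 0.0781), CD47 (0.0555) and MCM2 (0.0536). An intensity trend with a robust prior lost ITGA3 (0.067) and called CD36 (0.0375).

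The remaining lists had 0 called members. They were hypoxia response and glycolysis (43 measured, median -0.049), lung lineage genes (24, 0.14), cancer-testis antigens (29, 0.10), homeobox HOX genes (24, 0.17) and imprinted genes (19, 0.12). Among marker lists, fibroblast and marrow stroma (14, 0.10), osteoblast and osteoclast (11, -0.042), haematopoietic (19, 0.17), endothelial (13, 0.056) and neuroendocrine or small cell markers (13, 0.091) also had 0 called.

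**Figure D5:**
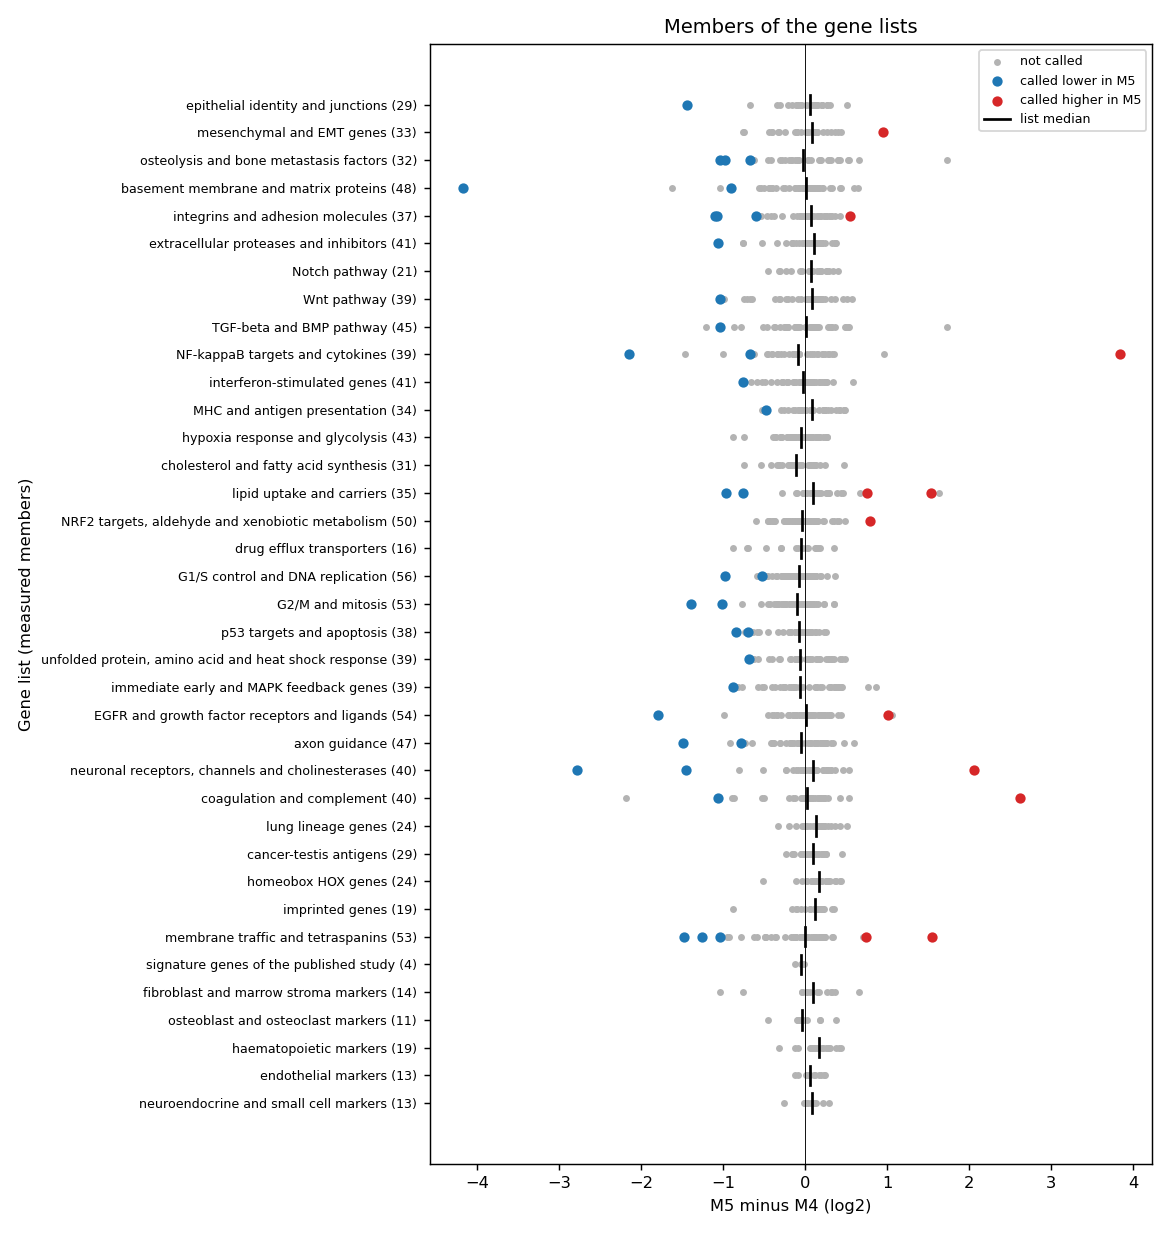
Log2 differences between M5 and M4 for the measured members of the 37 gene lists, 1 point per gene, with a bar at each list median and the number measured after each name. List medians stay between -0.11 and 0.17 while single members reach -4.17 (FBN2) and 3.83 (IL13RA2).

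The 4 signature genes of the published study, TCF4, PRKD3, MCAM and SUSD5, did not differ between M5 and M4 by a called amount. That study chose them on these samples, so their direction is not independent evidence. PRKD3, a protein kinase D, read 9.62, 9.45 and 9.38 in M4 and 10.37, 9.14 and 8.89 in M5. The first M5 array was the highest of the 6 and the later M5 arrays were the lowest. The difference was -0.01 ± 0.29 (SE; limma adjusted p = 0.986), with 0.75 in the first and -0.40 in the later arrays. With the array group block PRKD3 was called at 0.75 (adjusted p = 0.034), and without M5 replicate 1 it was called at -0.47 (adjusted p = 0.0428). TCF4, a basic helix-loop-helix factor, was at -0.12 ± 0.21 (SE; limma adjusted p = 0.819). MCAM, a melanoma-associated adhesion molecule, was at -0.04 ± 0.30 (0.961), and SUSD5, a sushi-domain protein, at -0.06 ± 0.32 (0.948). The signs of all 4 turned in some settings.

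JAG1 showed the same split between arrays. It read 6.44, 6.96 and 6.63 in M4 and 8.36, 6.40 and 6.50 in M5. Only the first M5 array was high. The first arrays gave 1.91 and the later arrays -0.35, and the array group block, which rests on the first arrays, called it at 1.80 (adjusted p = 0.000785). The other probe sets of JAG1 gave 0.13, 0.11 and 0.64.

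Markers placed both lines among keratin-expressing cells. KRT8 was at 9.99 ± 0.34 in M4 and 9.78 ± 0.60 in M5 (SD, n = 3), and KRT18 and KRT19 were near 12.5 and 10.5 in both. EPCAM and CDH1, which many carcinoma cells express, were below the lower quartile on all 6 arrays. So were INSM1, LUM, PTPRC, PECAM1, CDH5, VWF and CALCR, named for neuroendocrine, fibroblast, haematopoietic, endothelial and osteoclast cells. CD3D, CD14, and the keratins KRT5 and KRT14 were below it on some arrays. Other markers of these types were above the lower quartile on all 6 arrays, at low signals in M4 and M5 for CHGA (5.46 and 5.57), SYP (5.05 and 5.16), DCN (5.06 and 5.23), HBB (4.82 and 5.25) and CTSK (5.28 and 5.30), and at 7.05 and 7.07 for COL1A1. COL3A1, a collagen of fibroblasts, was well above that at 9.59 ± 0.48 in M4 and 8.56 ± 0.50 in M5, and was not called (limma adjusted p = 0.135). None of the 27 marker genes measured was called between the lines.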

How the data were processed

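RNA of 13 arrays (5 groups) was measured, 3 each of M5 and M4. The authors deposited log2 signals of 22277 probe sets made with RMA, per the submitters' processing notes. Its version is not given in the sources used here. RMA commonly normalizes probe signals across arrays and fits them on the log scale, which can shrink differences of dim genes.

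The 62 control probe sets were set aside. Of the others, 19064 name 1 gene, 1043 several and 2108 none. The probe set with the highest mean stood for each of 11963 genes, and 11954 were found in the RefSeq table, which gave chromosomes. limma 3.58.1 (R 4.3.3) fitted group means over all 13 arrays with eBayes, with Benjamini-Hochberg adjustment over all genes. The members, lists and naming rule were chosen with earlier results of these data known. Named were the 12 largest rises and 12 largest falls among called genes whose lines did not overlap, whose first and later arrays had the same sign and whose higher mean exceeded the median of all genes, up to 4 called members of each list, the signature genes, and CHRNA9, CD36, JAG1, FBN2, CLDN1 and TGFBR2. Same-numbered M4 and M5 arrays deviated together from their line means (r = 0.46, 0.26 and 0.20 for replicates 1 to 3). M4 replicate 3 with M5 replicate 2 reached 0.46 as well. Deviations cancel within a line, so the values for replicates 2 and 3 partly follow from replicate 1. The labels' replicate numbers were also tried as a block. Alternatives were this block, array groups as a block, other probe set choices, normalization, filters, thresholds and leaving out arrays. The code was tested on simulated data.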

Additional observations from a re-analysis of the deposited data

How the results depend on the processing

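Counts are given as all called, higher and lower, against 258, 45 and 213. With the replicate block over 13 arrays they were 174, 27 and 147. With the replicate block in the 6 arrays alone they were 90, 17 and 73, and in the 6 arrays without a block 48, 10 and 38. With the array groups as a block 120 were higher and 101 lower. At an adjusted p under 0.01 the counts were 72, 9 and 63, with at least a 2-fold difference 66, 10 and 56, and without chromosome 3 68, 22 and 46. Leaving out 1 array gave 69 to 2443 in all, 8 to 1086 higher and 57 to 1357 lower. Other settings kept the 3 counts within 1.5 times. The chromosome 3 median ran from -0.34 to -0.27 when 1 array was left out, and was -0.34 with centred arrays, -0.55 for genes above the median signal and -0.22 with the array group block, which was added after seeing the data.

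Signs turned for 7 named genes, of which CD47 had been called. CD47 was at 1.73e-05 with the probe set of largest interquartile range, and TGFBR2 at 0.0021 with the mean of probe sets. With the array group block TCF4 was at 0.22, PRKD3 at 0.75, MCAM at 0.20 and SUSD5 at 0.78. Quantile normalization put PRKD3 at 0.075. Leaving out 1 array gave TCF4 a range of -0.35 to 0.12, PRKD3 -0.47 to 0.28, MCAM -0.36 to 0.21, SUSD5 -0.53 to 0.31 and JAG1 -0.23 to 0.75. The causes were not tested. The array signal sets the limit for dim genes, and 3 arrays a line limit what can be called.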
